A study of Homo sapiens with 6 samples.

Results

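The genes described here are 36 genes of glycolysis and of the response to hypoxia, chosen by name from a deposited table of 58364 rows. Each of the 36 stood on 1 row, and 35 had the mean of at least 0.5 FPKM (fragments per kilobase of transcript and scaled to library size) that was asked for a test, as had 15895 rows in all. Their mRNA was measured by RNA-seq at day 8 of hematopoietic differentiation of H1, an established line of human embryonic stem cells (hESCs), in 2 libraries of wild-type (WT) cells and 4 libraries of cells whose MSX2 gene had been targeted by CRISPR-Cas9 guides directed at its second exon. The 4 are replicates 1 and 2 of each of the MSX2-/- clones that the columns of the table call 1# and 2#. The labels give both genotypes the same course, activin A and BMP4 followed by VEGF and bFGF. MSX2 is a homeobox transcription factor. Both clones come from 1 line and were made with guides to 1 gene, so what the clones share for other reasons and what goes with the genotype cannot be told apart. CD31+ cells appear in the labels of the MSX2-/- libraries and not in those of WT, while the paper names them for both genotypes. HAND1 overexpression is mentioned in the growth protocol and not in the paper.

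The mRNA of the targeted gene was listed at 3.64 and 1.44 FPKM in WT replicates 1 and 2, at 18.0 and 5.62 FPKM in clone 1# and at 31.8 and 6.69 FPKM in clone 2#. It was thus higher in all 4 libraries labelled MSX2-/-, so the mRNA level does not check the labels, and "MSX2-/-" below stands for "the library labelled MSX2-/-". The edit itself was checked by the paper at the level of DNA, where sequencing of the targeted exon showed frameshift and deletion in both clones. The endothelial markers PECAM1 (CD31) and CDH5 were at 186 to 258 FPKM and 230 to 423 FPKM in the 6 libraries. The number of reads is not in the table. From genes at low values, the depth of the libraries relative to WT replicate 1 was between 1 and 1.18, and 13366 to 14222 genes reached 1 FPKM. The labels give replicate 1 and replicate 2 each a set letter of its own, and the sources used here do not say what set them apart. The paper says of its analyses in general that the experiments were independent, and not of these libraries that they came from separate cultures, so p-values measure only the spread between these libraries, which may be technical.

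Glycolysis splits glucose into pyruvate in the cytosol. Glucose enters through SLC2A transporters, is trapped by hexokinase and committed by phosphofructokinase, and the pyruvate is either reduced to lactate by lactate dehydrogenase and exported through SLC16A transporters or passed to the mitochondria, a step that pyruvate dehydrogenase kinases (PDKs) hold back. When oxygen is low, the prolyl hydroxylases encoded by EGLN genes no longer mark the HIF-alpha subunits (HIF1A, and EPAS1, which encodes HIF-2alpha) for destruction. HIF then raises many glycolytic genes together with others such as CA9, BNIP3, ADM and NDRG1. HIF1A is controlled mainly at the level of its protein, which RNA-seq does not measure. Endothelial cells are known to rely on glycolysis, and hematopoietic cells arise from endothelium at this stage of the culture.

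The core of the hypoxia response element, to which HIF binds, is ACGTG or GCGTG. RefSeq (GRCh38.p14) gave 1 transcript start by symbol for 32 of the 36 genes (SLC2A3, SLC16A1, BNIP3L and NDRG1 had no entry), and the 250 bases before it were searched for both motifs on both strands. The start used lay within 100 bases of a transcript start in GENCODE v29 for 28 of the 32, the others being HK1, PFKP, PGAM1 and EGLN1. It was more than 1000 bases inside the outermost start of the gene for 18, among them HK1 (64.6 kb), PFKFB3 (58.0 kb), PFKP (38.3 kb) and PFKM (17.5 kb), so these windows are not those of the outermost start. At least 1 match stood in 24 of the 32, against 43.2% of 35116 promoters of the same length. Both motifs hold the letters CG, and the promoters were not matched for base content. Whether these genes hold more matches than promoters of like content was not tested. ACGTG was matched in 16 of the 32 and in 18.5% of all, and GCGTG was matched in 32.2% of all. Either motif was found in 6 of 7 genes whose mRNA was higher in replicate 2 than in replicate 1, in 6 of 7 of those lower there and in 11 of 17 that were not called, the calls described below. Grouped by the genotype fit with the block, it was found in 6 of 10 genes called higher and in 17 of 21 not called (ACGTG in 2 of 10 and 13 of 21). The following 4 promoter stretches are shown because their genes turn up in the results with different patterns. SLC2A1 (minus strand, chr1:42958869-42959118) was higher in MSX2-/- cells, HK2 (plus strand, chr2:74834920-74835169) was higher in replicate 2, and ENO2 (plus strand, chr12:6914330-6914579) and BNIP3 (minus strand, chr10:131981924-131982173) were lower in replicate 2. They are written 5′ to 3′ along the gene, with the matched letters in capitals. CACGTG reads as ACGTG on both strands and was counted on each, and CACGC is GCGTG read on the other strand.
SLC2A1: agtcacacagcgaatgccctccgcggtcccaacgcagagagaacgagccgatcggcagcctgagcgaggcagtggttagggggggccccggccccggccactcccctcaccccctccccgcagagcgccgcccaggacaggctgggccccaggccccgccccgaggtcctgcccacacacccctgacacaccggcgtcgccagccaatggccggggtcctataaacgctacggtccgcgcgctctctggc
HK2: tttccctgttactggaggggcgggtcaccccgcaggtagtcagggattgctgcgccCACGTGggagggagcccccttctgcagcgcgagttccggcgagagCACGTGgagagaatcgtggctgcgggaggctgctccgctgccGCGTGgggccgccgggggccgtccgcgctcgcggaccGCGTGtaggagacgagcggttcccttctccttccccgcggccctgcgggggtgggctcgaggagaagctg
ENO2: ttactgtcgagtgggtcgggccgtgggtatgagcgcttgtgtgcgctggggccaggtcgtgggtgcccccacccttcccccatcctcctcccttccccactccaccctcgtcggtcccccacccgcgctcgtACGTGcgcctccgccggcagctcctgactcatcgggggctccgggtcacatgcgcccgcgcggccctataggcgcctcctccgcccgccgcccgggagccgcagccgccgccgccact
BNIP3: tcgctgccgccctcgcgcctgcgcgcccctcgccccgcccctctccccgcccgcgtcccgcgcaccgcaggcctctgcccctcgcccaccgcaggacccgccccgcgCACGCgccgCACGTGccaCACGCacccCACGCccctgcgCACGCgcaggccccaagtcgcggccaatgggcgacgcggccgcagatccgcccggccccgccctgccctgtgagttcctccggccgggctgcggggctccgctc

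HK2 and BNIP3 each had 6 matches, ENO2 had 1 and SLC2A1 had none in its window. A match is a stretch of letters and not a measured binding site, and a window without one says only that these letters are not in it.

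Levels differed widely among the 36 genes. GAPDH, at 1869 to 2449 FPKM, was the most abundant, followed by the enzymes ENO1, ALDOA, PKM and LDHB, and the 17 glycolytic enzymes summed to 0.857% to 1.02% of all FPKM in a library. The lowest enzyme was HK2 (5.78 to 11.97 FPKM), the inducible hexokinase, while its housekeeping counterpart HK1 was at 85.2 to 121 FPKM. Of the 8 transporters and flux regulators, SLC2A1, SLC2A3, SLC16A1 and SLC16A3 lay between 58.97 and 330.2 FPKM, and PFKFB3, PFKFB4, PDK1 and PDK3 between 1.76 and 26.8 FPKM. Among the 11 genes of the hypoxia response, EPAS1 and HIF1A were the most abundant. CA9, carbonic anhydrase IX, a gene widely used as a mark of hypoxia, was at 0.107 to 0.406 FPKM and was not tested.

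**Figure D1:**
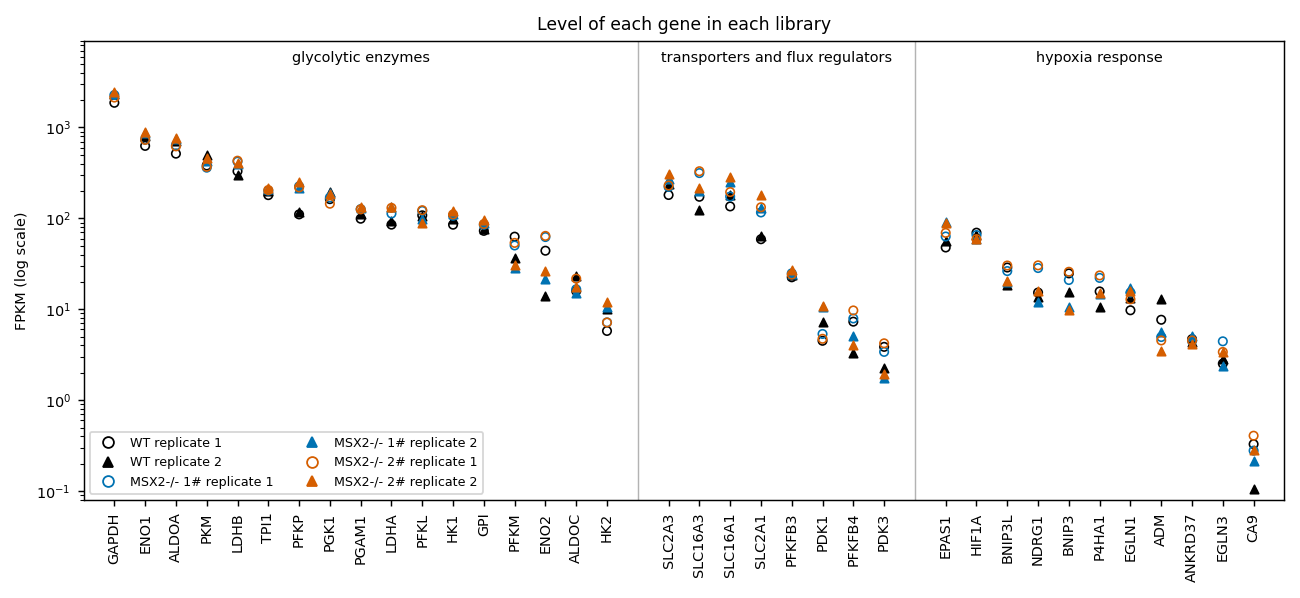
FPKM on a log axis (y) of each of the 36 genes (x) in each of the 6 libraries, with WT in black, MSX2-/- clone 1# in blue and clone 2# in orange, open circles for replicate 1 and filled triangles for replicate 2. Levels run from 0.107 FPKM (CA9) to 2449 FPKM (GAPDH), and the spread among libraries of 1 gene is small beside the differences between genes.

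Copies of the same sequence could draw reads away from some of these genes. The table lists 148 pseudogenes or close copies of 16 of the 36. The highest relative to its parent was EGLN3P1, at 8.65% of EGLN3, followed by BNIP3P9 at 6.58% of BNIP3. Genes on the opposite strand overlap 22 of the 36, among them SLC2A1-AS1 at SLC2A1, SENP1 at PFKM and CSNK1D at SLC16A3, and genes on the same strand overlap 19, among them AL451164.3 at PFKP and LRRC23 at ENO2. Overlap was judged over the whole span of each gene, introns included, and exons were not compared. The sources used here do not say that the counting used strand. Whether reads of such overlapping genes entered the values is therefore not known.

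The first comparison asks whether genes of glucose use and of the hypoxia response differ between MSX2-/- and WT cells. A glucose transporter and a subunit of phosphofructokinase were higher in MSX2-/- cells. SLC2A1 (GLUT1), the basal glucose transporter, was 2.26-fold and PFKP, the platelet-type phosphofructokinase, 2.001-fold the WT mean. These 2 of the 35 genes tested were called higher and 0 lower (limma, adjusted p under 0.05 over all 15895 genes), against 0.963% of all genes called higher, 0.321% lower and 1.28% called in either direction. At an unadjusted p under 0.05, 10 of the 35 passed, against 11.8% of all. With the replicate number as a block, 12 of the 35 were called higher and 0 lower. Of all genes, 6.11% were called higher, 3.74% lower and 9.85% in either direction. At an unadjusted p under 0.05 there were 20 of the 35, against 26.7% of all. The block removes only the part of the difference between replicates 1 and 2 that both genotypes share. The 12 are SLC2A1, SLC2A3, HK1, PFKP, PGAM1, ENO2, LDHA, LDHB, SLC16A1, SLC16A3, EPAS1 and P4HA1. The median log2 fold change, on the scale of log2(FPKM + 1), was 0.19 for the 17 enzymes, 0.31 for the 8 transporters and regulators, 0.15 for the 10 tested genes of the hypoxia response and 0.0081 for all genes.

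SLC2A1 was at 58.97 and 64.7 FPKM in WT replicates 1 and 2, at 116 and 129 FPKM in clone 1# and at 133 and 182 FPKM in clone 2#. All 4 MSX2-/- libraries lay above both WT libraries (log2 fold change 1.15, SE 0.19, adjusted p = 0.0470 by limma, and adjusted p = 0.00784 with the block). The difference was 1.06 within replicate 1 and 1.23 within replicate 2. SLC2A3 (GLUT3), a transporter with a higher affinity for glucose, was at 181 and 240.4 FPKM in WT, 222 and 274 FPKM in clone 1# and 229.9 and 304 FPKM in clone 2#. Its groups overlapped, and it passed the test with the block (log2 fold change 0.29, SE 0.065, adjusted p = 0.0436 by limma) and not without it (adjusted p = 0.628). Within each replicate, both clones were above WT.

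PFKP was at 111 and 118 FPKM in WT, at 225 and 218 FPKM in clone 1# and at 219 and 252 FPKM in clone 2#. The 4 values were close to each other and far above both WT values (log2 fold change 0.99, SE 0.10, adjusted p = 0.0150 by limma, and adjusted p = 0.00165 with the block). The liver-type subunit PFKL was at 108 and 106 FPKM in WT and 121, 98.4, 123 and 89.9 FPKM in the MSX2-/- libraries, with groups that overlapped (log2 fold change -0.00094). The muscle-type subunit PFKM was at 62.9 and 36.3 FPKM in WT and 50.3, 28.5, 53.7 and 30.5 FPKM in MSX2-/- cells, did not pass (adjusted p = 0.873, 0.0618 with the block), and was below WT in both clones within each replicate. These 3 subunits make up the phosphofructokinase tetramer. The share of PFKP in their summed FPKM was 42.3 ± 4.22% in WT (SD, n = 2) and 60.8 ± 5.75% in MSX2-/- cells (SD, n = 4), those of PFKL were 39.6 ± 1.74% and 28.6 ± 3.16%, and those of PFKM 18.1 ± 5.95% and 10.7 ± 2.86%. For each of the 3 shares the groups did not overlap. The exact permutation test, which does not use the pairing, gave p = 0.0667, the smallest that 2 libraries against 4 can give. In the same way SLC2A1 made up 22.9 ± 2.40% of the SLC2A1 and SLC2A3 sum in WT and 35.1 ± 2.45% in MSX2-/- cells (exact p = 0.0667).

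**Figure D2:**
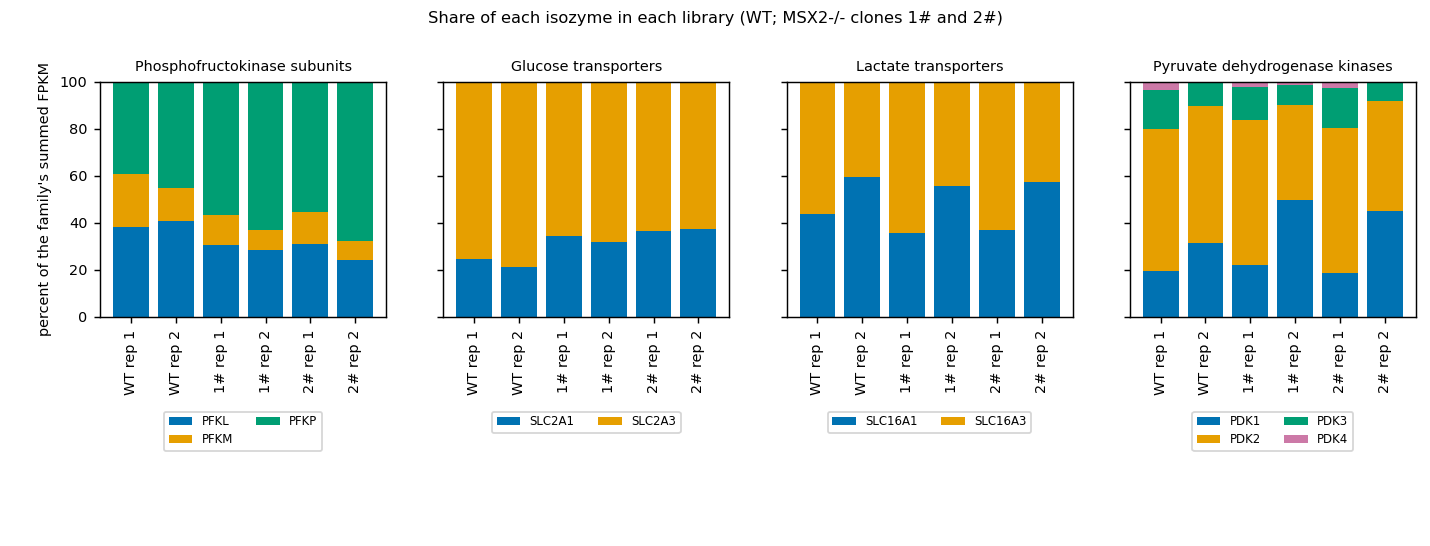
Percent of the summed FPKM of 4 gene families (y) taken by each member in each of the 6 libraries (x). PFKP takes 39.3% and 45.2% in the WT libraries and 55.3% to 67.7% in the MSX2-/- libraries, while the shares of SLC16A1 and PDK1 are higher in replicate 2 than in replicate 1 in WT and in both clones.

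At the lactate end of the pathway, both subunits of lactate dehydrogenase were higher in MSX2-/- cells, at shares that overlapped with those in WT. LDHA, the lactate dehydrogenase subunit that is a HIF target, was at 85.3 and 93.7 FPKM in WT and 113, 135, 131 and 134 FPKM in the MSX2-/- libraries, which all lay above WT (log2 fold change 0.51, SE 0.075, adjusted p = 0.0117 by limma, with the block, and adjusted p = 0.114 without it). LDHB, the heart-type subunit, was 1.32-fold the WT mean, with 4 MSX2-/- libraries at 421, 396, 431 and 408 FPKM above the WT values of 330.1 and 298 FPKM (adjusted p = 0.00799 by limma with the block, 0.105 without it). Their summed level with LDHC was 404 ± 16.9 FPKM in WT and 543 ± 13.5 FPKM in MSX2-/- cells, and LDHA made up 22.2 ± 2.39% and 23.6 ± 1.90% of it, groups that overlapped (exact p = 0.533, without the pairing). Within each replicate the LDHA share of both clones was above that of WT, at 21.1% and 23.2% against 20.5% in replicate 1 and 25.4% and 24.8% against 23.9% in replicate 2.

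SLC16A3 (MCT4), which exports lactate from glycolytic cells, was at 173 and 122 FPKM in WT, 315 and 201 FPKM in clone 1# and 330.2 and 214 FPKM in clone 2#. The groups did not overlap, and it was called with the block (log2 fold change 0.83, SE 0.064, adjusted p = 0.00179 by limma) and not without it (adjusted p = 0.258). SLC16A1 (MCT1), which carries lactate in either direction, was at 135 and 179 FPKM in WT, 174 and 250.3 FPKM in clone 1# and 195 and 288 FPKM in clone 2#. Its groups overlapped, and within each replicate both clones were above WT (log2 fold change 0.51, SE 0.087, adjusted p = 0.0191 by limma with the block, adjusted p = 0.468 without it). The sum of both was 305 ± 5.003 FPKM in WT and 492 ± 30.97 FPKM in MSX2-/- cells, without overlap (exact p = 0.0667, the smallest possible, without the pairing).

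The other enzymes differed less than LDHA and LDHB, except for ENO2. HK1 (1.23-fold the WT mean, adjusted p = 0.0394 by limma with the block) and PGAM1, phosphoglycerate mutase (1.23-fold, adjusted p = 0.0316), were called with the block and had all 4 MSX2-/- libraries above WT. ENO2, the neuron-type enolase, was at 44.1 and 13.9 FPKM in WT and at 62.3, 21.5, 64.2 and 26.3 FPKM in the MSX2-/- libraries in the order given above, with every replicate 1 value above every replicate 2 value. It was called with the block (log2 fold change 0.62, SE 0.11, adjusted p = 0.0193 by limma) and not without it (adjusted p = 0.818). The abundant GAPDH, ENO1 and ALDOA had log2 fold changes of 0.14, 0.18 and 0.19, and GPI, TPI1 and HK2 of 0.27, 0.13 and 0.21, none of them called in either fit. Below 0 without a call were PGK1 (-0.050), ALDOC (-0.11) and PKM (-0.12). PKM was at 381 and 499 FPKM in WT and 361, 426, 369 and 459 FPKM in MSX2-/- cells, and ALDOC, a brain-type aldolase, at 15.8 and 23.1 FPKM and 16.6, 15.1, 21.7 and 17.7 FPKM. The summed level of the 17 enzymes was 0.912% ± 0.0779 of all FPKM in WT (SD, n = 2) and 0.987% ± 0.0386 in MSX2-/- cells (SD, n = 4), with an exact p of 0.2 in a test that does not use the pairing. Within each replicate both clones were above WT, at 0.977% and 0.937% against 0.857% in replicate 1 and at 1.019% and 1.016% against 0.967% in replicate 2. The summed level of the 8 transporters and regulators was 0.107% ± 0.00226 and 0.156% ± 0.00836, without overlap (exact p = 0.0667, without the pairing).

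None of the 4 flux regulators was called in either fit. PFKFB3 and PFKFB4 make the fructose 2,6-bisphosphate that activates phosphofructokinase, and their log2 fold changes were 0.10 and 0.30, with adjusted p-values of 0.468 and 0.228 by limma with the block. PDK1 and PDK3 had 0.33 and -0.11, with 0.170 and 0.676.

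The hypoxia response did not move one way. EPAS1 was at 47.8 and 56.3 FPKM in WT, 63.2 and 90.8 FPKM in clone 1# and 69.2 and 90.04 FPKM in clone 2#, without overlap, and was called with the block (log2 fold change 0.57, SE 0.079, adjusted p = 0.0102 by limma) and not without it (adjusted p = 0.285). P4HA1, a collagen prolyl hydroxylase, was at 15.7 and 10.5 FPKM in WT and 22.1, 14.7, 23.6 and 15.3 FPKM in MSX2-/- cells. It too was called with the block alone (log2 fold change 0.49, SE 0.081, adjusted p = 0.0172 by limma, against adjusted p = 0.556). HIF1A itself was at 69.6 and 64.9 FPKM in WT and 65.5, 59.9, 59.1 and 58.9 FPKM in MSX2-/- cells, groups that overlapped (log2 fold change -0.14, SE 0.10, adjusted p = 0.719 by limma).

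ADM, the vasodilator peptide adrenomedullin, stood on the other side. It was at 7.67 and 12.8 FPKM in WT and at 4.95, 5.68, 4.54 and 3.45 FPKM in MSX2-/- cells. All 4 lay below both WT libraries, but it did not pass the test without the block (log2 fold change -0.97, SE 0.26, adjusted p = 0.177 by limma) or with it (adjusted p = 0.0519). The difference was -0.59 within replicate 1 and -1.34 within replicate 2. BNIP3 and BNIP3L, mitophagy receptors, had log2 fold changes of -0.33 and 0.051, and NDRG1, a stress-induced gene, had 0.46, with 0.90 within replicate 1 and 0.016 within replicate 2. ANKRD37, EGLN1 and EGLN3 had -0.0030, 0.39 and 0.25. None of these was called in either fit, with adjusted p-values from 0.0748 to 0.991 by limma with the block.

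**Figure D3:**
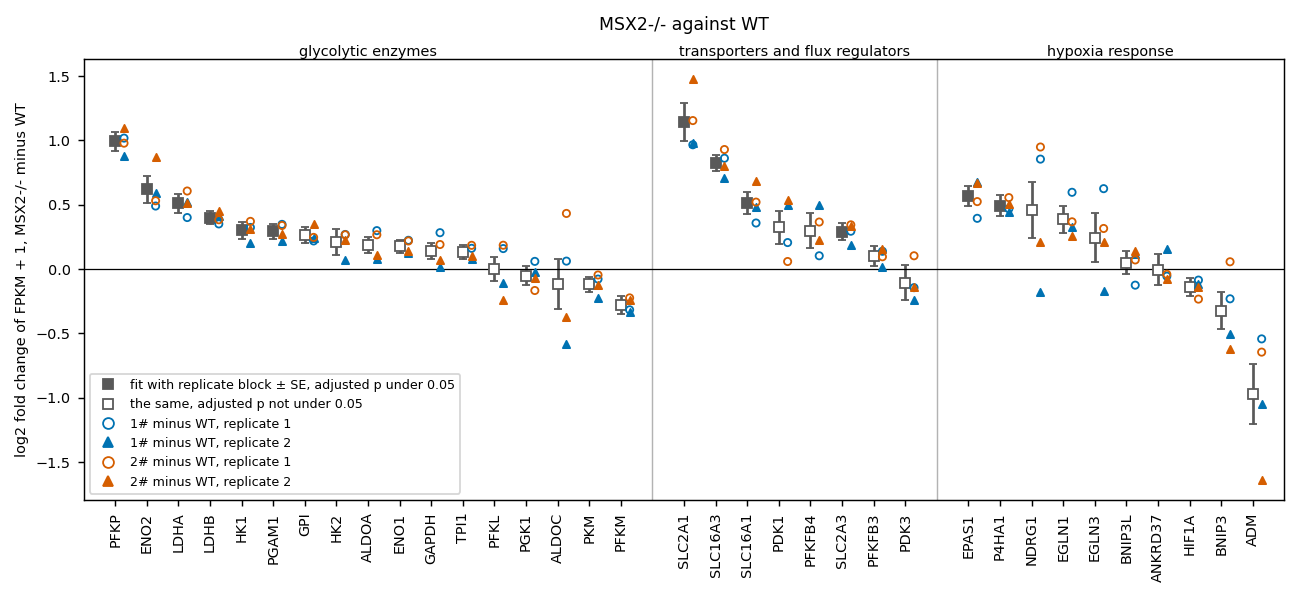
Log2 fold change of FPKM + 1 in MSX2-/- against WT cells (y) for the 35 genes tested (x), with squares and bars for the fit with the replicate block ± SE, filled where the adjusted p is under 0.05, and small points for each clone minus WT within replicate 1 (open) and replicate 2 (filled). PFKP (0.99) and SLC2A1 (1.15) stand highest with all 4 points at 0.88 or above, and ADM (-0.97) lowest.

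Of the 35 genes, 11 had all 4 MSX2-/- libraries above both WT libraries and 1 (ADM) had all 4 below, against 12.1% and 9.19% of all genes. When 1 library was left out, SLC2A1 was called in none of 6 fits without the block and PFKP in 1, that without clone 2# replicate 1 (adjusted p = 0.0461 by limma), with log2 fold changes that stayed at 0.94 or more. With WT and the clones fitted as 3 groups neither passed (adjusted p = 0.102 and 0.0717 by limma), and with rescaled libraries SLC2A1 missed the threshold (adjusted p = 0.0592). With the block, PFKP and SLC16A3 were called in all 6 such fits, and the 12 calls became 2 without WT replicate 2, 4 without WT replicate 1, 6 without clone 2# replicate 1, 7 without clone 1# replicate 1 and 8 without either of the other two. In a fit of all 6 libraries with the block, the contrast of clone 1# with WT had 3 calls (SLC2A1, PFKP and SLC16A3), against 550 of all 15895 genes. That of clone 2# with WT had these and ENO2, LDHA, LDHB, SLC16A1 and EPAS1, against 590 of all genes. Whether the clones differ was not tested.

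Markers of other cell types moved with the genotype too. The sum of 12 endothelial markers was 3424 to 4157 FPKM in WT and 2324 to 3579 FPKM in MSX2-/- cells, that of 10 blood progenitor markers 176 to 217 and 327 to 454 FPKM, that of 12 erythroid markers 128 to 159 and 260 to 634 FPKM, with AHSP listed at 0 in all libraries, and that of 10 mesenchymal markers 294 to 345 and 509 to 595 FPKM. Without the block limma called 3 of the 12 endothelial markers lower, and 3 of 9 blood progenitor, 4 of 11 erythroid and 2 of 9 mesenchymal markers tested higher. With the block, on which 10 of the 12 calls above rest, it called 7 of the 12 endothelial markers lower and 1 higher, and 7 of 9 blood progenitor, 4 of 11 erythroid and 4 of 9 mesenchymal markers higher, with 4 of 8 genes of the dissociation stress response. The sum of these stress genes was 296 to 442 FPKM in WT and 434 to 587 FPKM in MSX2-/- cells. That of 6 markers of liver-like endoderm was 205 to 311 FPKM and 330.02 to 546 FPKM, without overlap, with 1 of the 6 called higher with the block. SOX17 is in both this list and the endothelial one. Markers of pluripotent cells, 8 in all, summed to 94.4 to 112 FPKM in WT and 114 to 135 FPKM in MSX2-/- cells, without overlap, with 1 of 6 tested called higher with the block. In bulk RNA a higher share of one cell type and more RNA of a gene per cell cannot be told apart, and the part of these markers in the values above was not tested.

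Of 58 other genes of glucose metabolism, 44 were tested and 0 were called by limma without the block (7 at an unadjusted p under 0.05, against 11.8% of all genes). With it, 3 were higher and 1 was lower, which is 9.09% against 9.85% of all genes. They are named after their values were seen. PFKFB2, a further maker of fructose 2,6-bisphosphate, was at 2.39 and 2.81 FPKM in WT and 5.001, 5.68, 4.99 and 6.28 FPKM in MSX2-/- cells (log2 fold change 0.85, adjusted p = 0.00805 by limma), and its share of the PFKFB sum was 8.35 ± 1.39% and 14.7 ± 2.07%. The muscle enolase ENO3 had a log2 fold change of 0.67, BSG (basigin), the chaperone of the SLC16A transporters, 0.34, and PGLS of the pentose phosphate pathway -0.30.

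Of 47 other genes of the HIF pathway, 41 were tested and 1 was called without the block, which is 2.44% against 1.28% of all genes. CITED2, a HIF target that restrains HIF by binding the coactivators CBP and p300, was at 108 and 119.5 FPKM in WT and 329, 383, 313 and 429 FPKM in MSX2-/- cells (log2 fold change 1.66, SE 0.15, adjusted p = 0.0110 by limma). With the block, 3 were higher (CITED2, P4HA2 and ERRFI1) and 3 lower (HIF3A, STC1 and ZNF395), which is 14.6% against 9.85% of all genes, and the median of the 41 was -0.027.

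The second comparison sets replicate 2 against replicate 1 over the 3 pairs of libraries, with genotype as a term. Glycolytic enzymes were called in both directions. The other hypoxia targets, a list without glycolytic genes and HIF subunits, were called in 1, while EPAS1 and the HIF target PDK1 were called higher. Of the 17 enzymes, 5 were higher in replicate 2 (HK2, ALDOA, PGK1, ENO1 and PKM) and 2 lower (PFKM and ENO2). Of the 6 other hypoxia targets tested, 0 were higher and 4 lower (BNIP3, BNIP3L, NDRG1 and P4HA1), with a median log2 fold change of -0.54. In all, 18 of the 35 genes were called, 9 higher and 9 lower, which is 51.4% against 34.6% of all genes (15.6% higher and 18.9% lower), so a call in itself is common here. At an unadjusted p under 0.05 there were 21 of the 35, against 46.3% of all. The median log2 fold change was 0.10 for the enzymes, 0.16 for the transporters and regulators, -0.13 for the hypoxia response and -0.034 for all genes.

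Among the enzymes, HK2 was at 5.78, 7.17 and 7.15 FPKM in replicate 1 of WT, 1# and 2#, and at 10.1, 10.6 and 11.97 FPKM in replicate 2. The groups did not overlap (log2 fold change 0.63, SE 0.094, adjusted p = 0.00521 by limma). HK2 took 6.21 ± 0.154% of the hexokinase sum in replicate 1 (SD, n = 3) and 9.005 ± 0.352% in replicate 2 (SD, n = 3). ALDOA, the main aldolase here, was at 515, 634 and 620.2 FPKM in replicate 1 and 702, 743 and 758 FPKM in replicate 2 (log2 fold change 0.32, SE 0.057, adjusted p = 0.00897 by limma). ENO1, the main enolase, was at 627, 733 and 730.4 FPKM and 799.95, 871 and 882 FPKM (log2 fold change 0.29, SE 0.047, adjusted p = 0.00661 by limma). Pyruvate kinase PKM was at 381, 361 and 369 FPKM and 499, 426 and 459 FPKM (log2 fold change 0.31, SE 0.056, adjusted p = 0.00941 by limma), and phosphoglycerate kinase PGK1 at 163, 169.8 and 145 FPKM and 194, 191 and 184 FPKM (log2 fold change 0.25, SE 0.073, adjusted p = 0.0397 by limma). In each of these 5 the 3 libraries of replicate 2 lay above the 3 of replicate 1. The rises were 1.19-fold to 1.25-fold in mean FPKM for PGK1, ENO1, PKM and ALDOA and 1.63-fold for HK2.

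ENO2 went the other way from ENO1, with the largest fall of the 35 genes. It was at 44.1, 62.3 and 64.2 FPKM in replicate 1 and 13.9, 21.5 and 26.3 FPKM in replicate 2 (log2 fold change -1.45, SE 0.10, adjusted p = 0.000983 by limma). Its share of the enolase sum was 7.28 ± 0.760% in replicate 1 and 2.28 ± 0.568% in replicate 2 (SD, n = 3 each). PFKM was at 62.9, 50.3 and 53.7 FPKM and 36.3, 28.5 and 30.5 FPKM (log2 fold change -0.79, SE 0.067, adjusted p = 0.00127 by limma), with fold changes in the 3 pairs that were nearly equal. PFKL was at 108, 121 and 123 FPKM and 106, 98.4 and 89.9 FPKM, without overlap, and did not pass (log2 fold change -0.26, SE 0.089, adjusted p = 0.0698 by limma), though it was called lower when either WT library was left out. The remaining 9 enzymes (HK1, GPI, PFKP, ALDOC, TPI1, GAPDH, PGAM1, LDHA and LDHB) had log2 fold changes from -0.11 to 0.19 and were not called.

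Among the transporters, SLC2A3 and SLC16A1 were higher and SLC16A3 lower in replicate 2. SLC2A3 was at 181, 222 and 229.9 FPKM in replicate 1 and 240.4, 274 and 304 FPKM in replicate 2 (log2 fold change 0.37, SE 0.061, adjusted p = 0.00706 by limma), while SLC2A1 had a log2 fold change of 0.24 and was not called (adjusted p = 0.216). SLC16A1 was at 135, 174 and 195 FPKM and 179, 250.3 and 288 FPKM (log2 fold change 0.50, SE 0.082, adjusted p = 0.00706 by limma). SLC16A3 fell, from 173, 315 and 330.2 FPKM to 122, 201 and 214 FPKM (log2 fold change -0.59, SE 0.061, adjusted p = 0.00192 by limma). The replicates of SLC16A1 and SLC16A3 overlapped, while each of the 3 pairs moved the same way. SLC16A1 made up 38.9 ± 4.45% of the sum of both in replicate 1 and 57.4 ± 1.95% in replicate 2, with no overlap. Over 3 pairs the exact test cannot go below p = 0.25, which it gave.

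Of the pyruvate dehydrogenase kinases, PDK1 was higher and PDK3 lower. PDK1, a HIF target, was at 4.50, 5.35 and 4.73 FPKM in replicate 1 and 7.18, 10.6 and 10.8 FPKM in replicate 2 (log2 fold change 0.83, SE 0.12, adjusted p = 0.00484 by limma). PDK3 was at 3.86, 3.40 and 4.22 FPKM and 2.26, 1.76 and 1.95 FPKM (log2 fold change -0.69, SE 0.13, adjusted p = 0.0104 by limma). Of the summed FPKM of the 4 PDK genes, PDK1 took 20.02 ± 1.73% in replicate 1 and 42.04 ± 9.53% in replicate 2 (exact p = 0.25 over 3 pairs). PFKFB4 was at 7.31, 7.93 and 9.71 FPKM and 3.28, 5.07 and 4.01 FPKM, without overlap (log2 fold change -0.87, SE 0.13, adjusted p = 0.00521 by limma), while PFKFB3 had a log2 fold change of 0.067 and was not called.

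Among the hypoxia targets, BNIP3 was at 24.8, 20.99 and 25.9 FPKM in replicate 1 of WT, 1# and 2# and at 15.5, 10.6 and 9.75 FPKM in replicate 2 (log2 fold change -0.96, SE 0.14, adjusted p = 0.00451 by limma). BNIP3L was at 28.8, 26.3 and 30.3 FPKM and 18.4, 19.997 and 20.4 FPKM (log2 fold change -0.52, SE 0.086, adjusted p = 0.00725 by limma), and P4HA1 at 15.7, 22.1 and 23.6 FPKM and 10.5, 14.7 and 15.3 FPKM (log2 fold change -0.56, SE 0.076, adjusted p = 0.00389 by limma). The groups of these 3 genes did not overlap. NDRG1 was at 15.3, 28.4 and 30.4 FPKM and 13.8, 12.1 and 16.1 FPKM, with groups that overlapped and a small change in WT (log2 fold change -0.73, SE 0.20, adjusted p = 0.0366 by limma). ADM and ANKRD37 had log2 fold changes of 0.17 and -0.018 and were not called. CA9, under the limit for a test, was at 0.328, 0.279 and 0.406 FPKM and 0.107, 0.215 and 0.282 FPKM, lower in replicate 2 in 3 of 3 pairs.

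Of the oxygen sensors and HIF subunits, EPAS1 was the only one called. It was at 47.8, 63.2 and 69.2 FPKM in replicate 1 and 56.3, 90.8 and 90.04 FPKM in replicate 2 (log2 fold change 0.37, SE 0.075, adjusted p = 0.0130 by limma), so it was higher where BNIP3 and NDRG1 were lower. HIF1A had a log2 fold change of -0.077, EGLN1 of 0.28 and EGLN3 of -0.19, with adjusted p-values of 0.403, 0.0713 and 0.451 by limma.

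**Figure D4:**
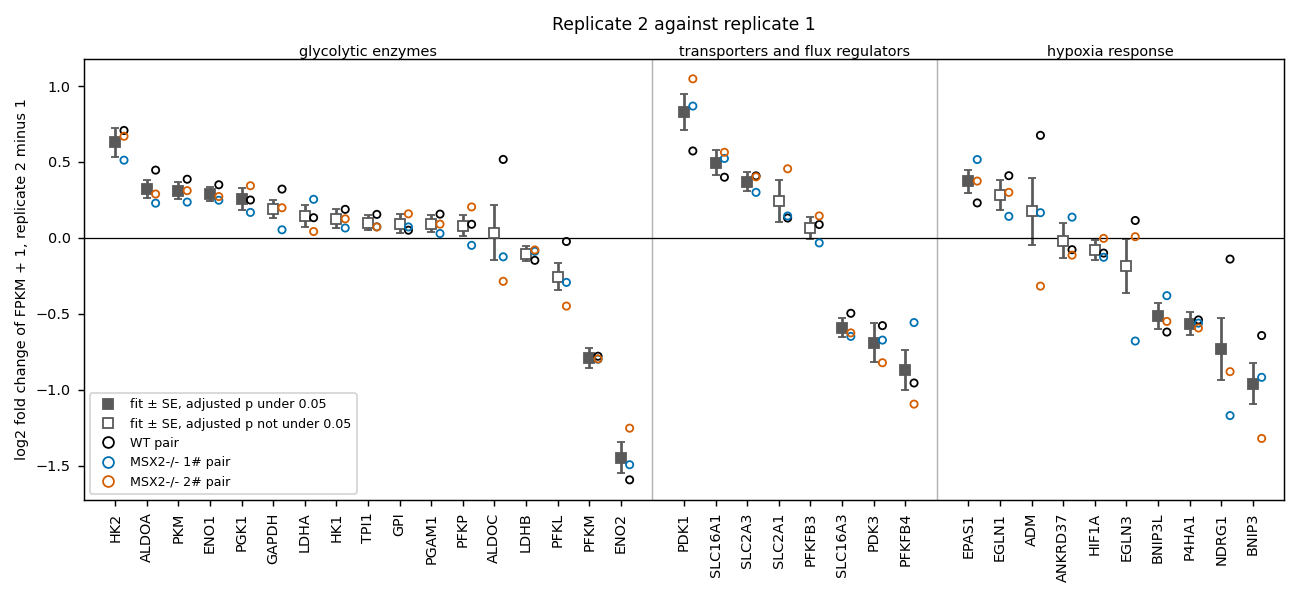
Log2 fold change of FPKM + 1 in replicate 2 against replicate 1 (y) for the 35 genes tested (x), with squares and bars for the fit ± SE, filled where the adjusted p is under 0.05, and open circles for the WT, 1# and 2# pairs. ENO2 (-1.45) is lowest and PDK1 (0.83) highest, and 4 hypoxia targets from BNIP3L (-0.52) to BNIP3 (-0.96) are filled below 0.

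Replicate 2 was above replicate 1 in 3 of 3 pairs for 17 of the 35 genes and below it for 12, against 28.6% and 33.9% of all genes tested. All 3 libraries lay above the other 3 for 8 and below for 8, against 18.8% and 22.7%. Leaving out 1 library left 15 to 17 of the 18 calls and added PFKL when it was a WT library. PGK1 lost its call in 5 of the 6 fits, the exception being that without clone 1# replicate 1, NDRG1 in all 4 fits that left out an MSX2-/- library, and EPAS1 without replicate 2 of either clone. Without the genotype term 9 of the 18 calls remained. GAPDH was called higher besides with a pseudocount of 0.1, at a mean of at least 5 FPKM and with rescaled libraries, and EGLN1 with rescaled libraries, which gave 20 calls.

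Lower values in replicate 2 were also common in the list of 47 other genes of the HIF pathway. Of 41 tested, 33 had a log2 fold change below 0, and the median was -0.41. Called lower were 18 and called higher 3 (51.2% against 34.6% of all genes, a share not matched for level). The 8 largest were VLDLR (-2.07), ZNF395 (-1.83), IGFBP3 (-1.82), STC1 (-1.63), ANGPTL4 (-1.60), HIF3A (-1.43), DDIT4 (-1.30) and CXCR4 (-1.17), all lower in replicate 2. ANGPTL4 encodes a secreted inhibitor of lipoprotein lipase and DDIT4 an inhibitor of mTORC1, and HIF3A encodes another HIF-alpha subunit that can restrain the others. DDIT4 was at 38.1, 36.2 and 41.9 FPKM in replicate 1 and 17.4, 13.97 and 14.2 FPKM in replicate 2 (adjusted p = 0.00103 by limma). IGFBP3 was at 9.90, 44.05 and 77.2 FPKM and 8.83, 9.997 and 7.13 FPKM, so its fall was large in the clones and small in WT. ARNT, the partner of all HIF-alpha subunits, had -0.67 (adjusted p = 0.00264). The 3 higher were BHLHE40 (1.12), EGLN2 (0.36) and CITED2 (0.27). ARNT and these 3 are named after their values were seen.

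**Figure D5:**
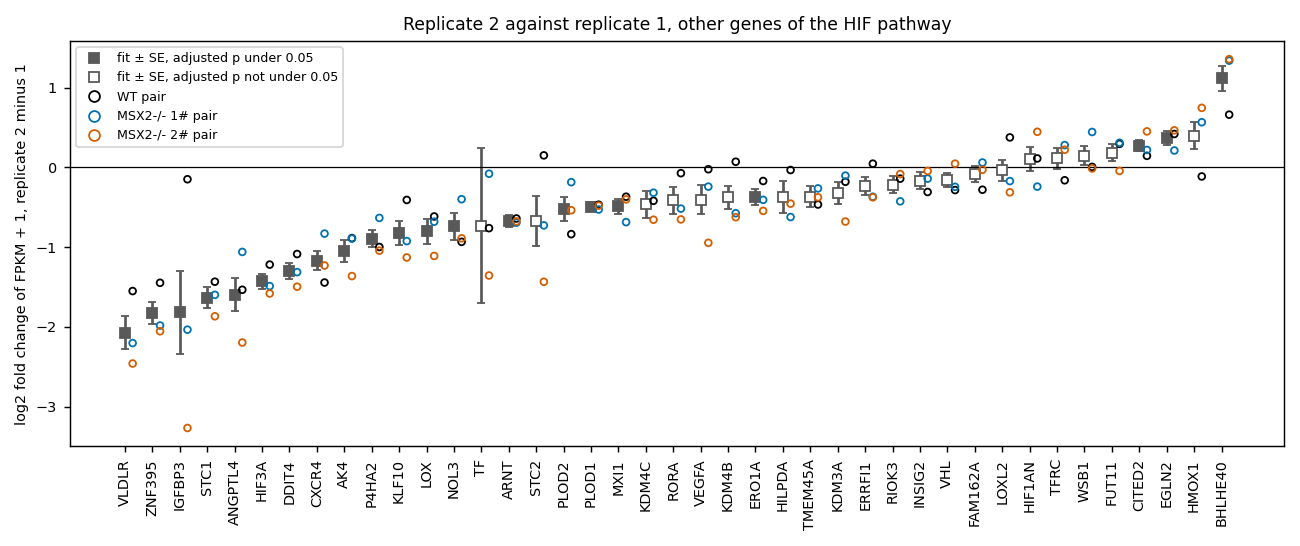
Log2 fold change of FPKM + 1 in replicate 2 against replicate 1 (y) for the 41 other genes of the HIF pathway that were tested (x), with squares and bars for the fit ± SE, filled where the adjusted p is under 0.05, and open circles for the 3 pairs. The filled squares run from VLDLR (-2.07) to BHLHE40 (1.12), with 18 below 0 and 3 above.

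Of the 44 other genes of glucose metabolism, 6 were higher and 4 lower in replicate 2, with a median of 0.012. That is 22.7%, against 34.6% of all genes. The 8 called genes with the largest change were, among those that were higher, GBE1 (1.15), SLC2A6 (0.67), PGM2 (0.63), DLAT (0.55) and RPIA (0.46), and among those that were lower PYGL (-0.78), SLC2A8 (-0.68) and PCK2 (-0.68). GBE1, the glycogen branching enzyme, was at 3.42, 5.45 and 4.83 FPKM in replicate 1 and 13.01, 10.2 and 10.6 FPKM in replicate 2 (adjusted p = 0.00547 by limma).

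Genes of cell division and of stress moved with the replicate. The sum of 12 proliferation markers was 200 to 229 FPKM in replicate 1 and 323 to 369 FPKM in replicate 2, and 11 of the 12 were called higher. The sum of 10 genes of the dissociation stress response was 296 to 449 FPKM and 442 to 587 FPKM, with HSPA1A and HSPA1B listed at 0 in all libraries, and that of the erythroid markers was 159 to 634 FPKM and 128 to 266 FPKM. The 12 endothelial markers summed to 2324 to 3424 FPKM in replicate 1 and 3508 to 4157 FPKM in replicate 2, with 5 called higher. The part of these in the differences between replicates was not tested.

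Whether the step from replicate 1 to replicate 2 differed between genotypes was tested as an interaction in limma, with 2 residual degrees of freedom. None of the 35 genes was called, against 0.0189% of all genes, and 2 had an unadjusted p under 0.05, against 11.4% of all genes. They were PFKL (difference of log2 fold changes -0.35, adjusted p = 0.414 by limma) and NDRG1 (-0.89, adjusted p = 0.394). In NDRG1 replicate 1 was at 28.4 and 30.4 FPKM in the clones and 15.3 FPKM in WT, and replicate 2 at 12.1 and 16.1 FPKM and 13.8 FPKM. The fit has few degrees of freedom, so the lack of calls does not show that the genotypes respond alike.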

How the data were processed

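The authors deposited 1 table of FPKM values with a column per library. The design text in the labels names TopHat and Cufflinks, the submitters' processing notes list BWA, Bowtie, RSEM and hg19, and the sources do not say which of these made the table. The library kit (Illumina TruSeq RNA) is not described as strand-specific. The 36 genes and the other gene lists were chosen with earlier results of these data known.

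From the deposited FPKM, limma (version 3.58.1, R 4.3.3) was run on log2(FPKM + 1), with eBayes and its trend option, over all 15895 rows with a mean of at least 0.5 FPKM (1 row without values was left out). P-values were adjusted over these rows by the Benjamini-Hochberg method, with 0.05 as the threshold. Fold changes on this scale understate those of low genes. The shares given for all genes were not matched for level. The 4 MSX2-/- libraries were set against the 2 WT libraries, with the replicate number as a block in an alternative fit, and the 3 libraries of replicate 2 against the 3 of replicate 1 with genotype as a term. The replicate differences of WT, 1# and 2# correlated over genes (Pearson's r 0.508, 0.540 and 0.636), so the numbers were taken to pair the libraries. Clone columns could be tied to a genotype and a replicate by the labels, not to a clone number in them. Shares were compared by two-sided exact permutation tests, whose smallest p is 0.0667 for 2 against 4 libraries and 0.25 for 3 pairs. The test of 2 against 4 libraries does not use the pairing and treats the libraries of a clone as independent. The SD over the 4 MSX2-/- libraries mixes clones and replicates. The fits were tested on simulated data.

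Values in every library are given for genes called in either comparison and for the 3 highest and 3 lowest fold changes among the enzymes and among the other genes. From the other lists, called genes are named up to the 8 with the largest change. From the list of other HIF pathway genes, 1 gene was left out and is not reported here. Overlapping genes were looked up by symbol in GENCODE v29, promoters in RefSeq (GRCh38.p14). The number of reads is unknown, so no interval or detection floor is given. The alternatives tried were another pseudocount, filters, scaling, no trend, summed rows per symbol, other covariates, clones and pairs alone and leaving out each library. For a clone alone, all 6 libraries stayed in the fit and only the contrast was limited to that clone and WT. Figures were drawn with matplotlib 3.10.9.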

Additional observations from a re-analysis of the deposited data

Results flagged for a closer look

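HIF1A was picked out because 1 of its 4 MSX2-/- libraries lay apart from the other 3. It was at 65.5 FPKM in clone 1# replicate 1 and at 59.9, 59.1 and 58.9 FPKM in the others, while the WT libraries were at 69.6 and 64.9 FPKM. The gap is large only beside a narrow range. Of the 36 genes examined in this way 1 was picked out, and chance alone picks out about 1 group in 20.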

How the results depend on the processing

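Between MSX2-/- and WT cells and without the block, the 204 genes called became 125 with no filter, 6 with 3 groups, 1 with either clone alone and 11 to 76 when 1 library was left out. The 2 of the 36 genes called became 0 with 3 groups or either clone alone, 1 (PFKP) with no filter, with no trend or after the libraries were rescaled, and 0 to 1 with 1 library left out. The replicate block gave 1566 genes and 12 of the 36, 507 and 4 with no filter besides, and 1602 and 14 (12 higher, and PFKM and ADM lower) with rescaled libraries, a setting chosen after seeing the data. Clone 1# alone with the block gave 550 genes and 3 of the 36, and clone 2# alone 590 and 8. Leaving out 1 library from the blocked fit, also chosen after seeing the data, gave 665 to 899 genes and 2 to 8 of the 36. Leaving out a library, fitting 3 groups and setting either clone alone against WT leave fewer residual degrees of freedom, and no filter adds genes to the test. What caused the changes in these counts was not tested for any setting. The median log2 fold change of the enzymes ran from 0.055 to 0.30 and that of the transporters and regulators from 0.25 to 0.54 with 1 library left out, and that of the hypoxia response from 0.072 to 0.24. With the block these ranges were 0.13 to 0.25, 0.28 to 0.44 and 0.031 to 0.22.

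Between replicates, the 5492 genes called became 3593 with no filter, 3112 without the genotype term and 3091 to 4707 with 1 library left out, and the 18 of the 36 became 9 without the genotype term, 20 with rescaled libraries and 15 to 18 with 1 library left out. Class medians moved to 0.16 for the enzymes in the WT pair alone, -0.25 for the hypoxia response in the 1# pair alone, -0.30 for it at a mean of at least 5 FPKM, and 0.27 for the transporters and regulators in the 2# pair alone, and with 1 library left out the enzymes' ran from 0.095 to 0.15, that of the transporters and regulators from 0.058 to 0.24 and that of the hypoxia response from -0.21 to -0.046. The interaction called 3 genes, 693 with no filter, 13 with no trend, and 0 with a pseudocount of 0.1 or with 1 MSX2-/- library left out, all settings chosen after seeing the data, and none of the 36 genes in any of these.

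Directions turned in genes that were not called in that fit. Between genotypes, without the block or with it, ALDOC had 0.032 in clone 2# alone, and in clone 1# alone ANKRD37 had 0.052, BNIP3L -0.0049, PFKL 0.025 and PGK1 0.019. With 1 library left out and no block, the log2 fold changes ran from -0.034 to 0.41 for ALDOA, -0.37 to 0.14 for ALDOC, -0.044 to 0.036 for ANKRD37, -0.26 to 0.36 for BNIP3L, -0.18 to 1.42 for ENO2, -0.021 to 0.30 for GAPDH, -0.14 to 0.56 for HK2, -0.39 to 0.18 for PDK3, -0.18 to 0.78 for PFKFB4, -0.067 to 0.083 for PFKL, -0.67 to 0.11 for PFKM, -0.17 to 0.075 for PGK1 and -0.31 to 0.075 for PKM. In these fits, leaving out a WT library set 1 WT replicate against both replicates of the clones. For ENO2, both clones were above WT within each replicate (log2 fold changes 0.49 to 0.87). Between replicates, with 1 library left out, the log2 fold changes ran from -0.076 to 0.41 for ADM, -0.21 to 0.21 for ALDOC and -0.094 to 0.041 for ANKRD37. ANKRD37 had 0.016 with rescaled libraries.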
